A study of Mus musculus with 16 samples.

Results

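The neurotrophin system of the hippocampus was followed here through 6 genes, 2 ligands (Bdnf and Ntf3) and 4 receptors (Ntrk2, Ntrk3, Ngfr and Sort1), which were taken by symbol from the 31960 genes of the deposited count table. Neurotrophins are secreted as precursors that are cleaved to mature growth factors. The mature forms bind Trk receptor tyrosine kinases, which signal for survival, growth and synaptic strengthening, whereas the precursors bind a complex of the p75 receptor with sortilin. In the hippocampus Bdnf is made by excitatory neurons, its transcription follows neuronal activity, and it is one of the main signals for synaptic plasticity.

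The mice came from the High Activity and Low Activity strains, which were bred in opposite directions for locomotion in an open field and then inbred. Each direction is represented by 1 inbred strain, so any difference between them includes the whole genetic background, and the strains also differed in coat colour. Poly-A RNA of untreated hippocampi from 4 females and 4 males of each strain was sequenced at postnatal day 70, with 1 library for each mouse. Libraries are named here by the number in their titles: in the High Activity strain 1 to 4 are females and 5 to 8 males, and in the Low Activity strain 9 to 12 are females and 13 to 16 males.

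Totals ran from 20815456 to 28760896 expected counts per library, and all 6 genes passed a filter on low counts that 17805 genes passed. The hippocampal label was checked on marker genes: markers of dentate granule cells summed to between 316 and 458 CPM (counts scaled to the library total) and those of CA1 pyramidal cells to between 453 and 568 CPM in every library. Summed markers of the choroid plexus ran from 129 to 5259 CPM over the libraries. Their means were 2671 CPM in High and 1140 CPM in Low Activity females, and 3595 and 1720 CPM in males. Markers of the neighbouring thalamus and habenula were higher in some male libraries. A list of 5 of them summed to 269 and 167 CPM in High Activity males 6 and 8. It summed to 164 and 127 CPM in Low Activity males 14 and 16, and to 45.7 to 104 CPM elsewhere. The 5 did not rise alike. Gpr151 and Tac2 reached 12.3 and 13.7 CPM in High Activity males but only 0.810 and 3.24 CPM in Low Activity males. Prkcd reached 142 and 122 CPM in these groups. The 4 males are called rich in thalamus and habenula RNA below by the sum alone. In 3 male libraries (5, 6 and 13) the female-specific RNA Xist stood at 5.96 to 11.02 CPM, against 0.294 to 0.738 CPM in the other males and at least 621 CPM in females. Some of the results that rest on these libraries, but not all, are given with and without them. In whole tissue, fewer cells of a type and less RNA in each cell cannot be told apart.

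Both ligands were lower and 3 of the 4 receptors were higher in High Activity mice when the strain difference was averaged over the sexes. Bdnf was 20.9% lower and Ntf3, the ligand of TrkC, 22.7% lower. Ntrk2, which encodes the Bdnf receptor TrkB, was 11.2% higher, Ntrk3, which encodes TrkC, was 22.5% higher, and Ngfr, the p75 receptor, was 47.0% higher. These 5 of the 6 genes passed edgeR's quasi-likelihood test at a Benjamini-Hochberg adjusted p under 0.05, while 11.4% of all genes tested did (5.46% higher and 5.89% lower), or 19.2% of the genes that passed the filter. The sorting receptor gene Sort1 did not pass it.

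Within the sexes fewer genes passed the same test, and they were different ones. In females Ntrk2 and Ntrk3 were called, 2 of 6 genes against 7.26% of all genes and 12.7% of those that passed the filter. In males Bdnf alone was called, 1 of 6 genes against 6.04% and 10.4%. This does not show that the sexes differed: the strain by sex interaction was called for 0 of the 6 genes and for 0% of all genes by edgeR. Its unadjusted p from edgeR was under 0.05 for 3208 of all genes (10%), and DESeq2 called 154 genes. Among the 6 genes the lowest adjusted interaction p from edgeR was 0.478, for Bdnf. Between the sexes 0 of the 6 genes were called within the High Activity strain, against 0.0344% of all genes, and 0 within the Low Activity strain, against 0.235%. The joint test of any strain difference called 4 of the 6 (Bdnf, Ntf3, Ntrk2 and Ntrk3). It called 10.3% of all genes and 17.8% of those that passed the filter.

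**Figure D1:**
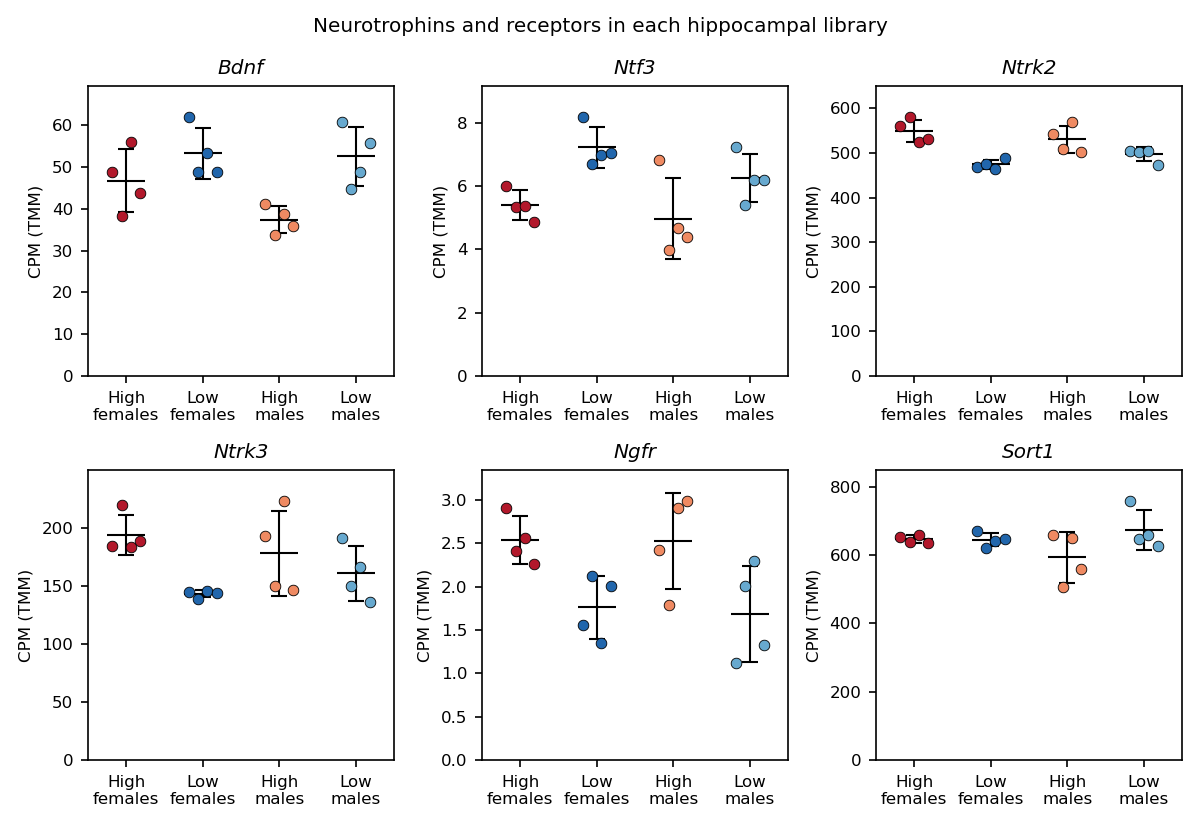
Normalised level in CPM, with factors for library composition (TMM), of each gene in each of the 16 libraries. Points are libraries (4 per group), long bars are group means and error bars are SD. Bdnf sat at 33.7 to 41.3 CPM in High Activity males, below all Low Activity males, and Ntrk3 at 184 to 220 CPM in High Activity females, above all Low Activity females.

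Per length of transcript the 6 genes spanned a wide range. Sort1 stood highest at a mean of 84.5 RPKM (counts scaled to library size and to kilobases of merged exons), above Ntrk2 at 26.6 RPKM in every library. Bdnf followed at 7.64 RPKM, Ntrk3 at 5.60 and Ntf3 at 3.48 RPKM. Bdnf and Ntrk3 overlapped in range (5.42 to 9.96 against 4.52 to 7.39 RPKM) and Bdnf was the higher of the pair in 14 of the 16 libraries. Ntrk3 exceeded Ntf3 in 16 of 16 libraries, although their ranges touched, since Ntf3 reached 4.77 RPKM. Ngfr was lowest at 0.618 RPKM, where the ranges no longer met. The merged exons of Ntrk3 add up to 30170 bases over 20 annotated transcripts and those of Ngfr to 3446 bases in 1 transcript, so the level per length of Ntrk3 depends on how many of its exons are used, which was not measured.

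Bdnf lies on chromosome 2 (109674700 to 109727007, forward strand, GRCm38) and has 11 annotated transcripts that begin at several alternative first exons. In RefSeq promoter sequences for GRCm38.p6, 7 windows of 250 bases before a Bdnf start site were searched for 3 motifs, on both strands: the cyclic AMP response element TGACGTCA, its short core CGTCA, which the full element contains, and the E-box CACGTG, a binding sequence of Usf factors. Only 1 of the 7 windows held any of them, a short core whose first base lies 35 bases before the start at 109692436. Of the 2 windows of Ntf3, the one before 126166744 on the reverse strand of chromosome 6 held an E-box with its first base 231 bases before the start. Both windows are shown because they belong to the 2 ligands called lower, with the matched motif in capitals and the strand of the gene read 5′ to 3′.
Bdnf, chr2:109692186-109692435, forward strand: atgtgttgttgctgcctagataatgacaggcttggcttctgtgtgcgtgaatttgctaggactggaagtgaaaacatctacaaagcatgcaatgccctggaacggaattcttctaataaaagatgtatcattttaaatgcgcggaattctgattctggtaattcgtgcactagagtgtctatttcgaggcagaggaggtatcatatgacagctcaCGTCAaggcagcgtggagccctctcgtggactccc
Ntf3, chr6:126166745-126166994, reverse strand: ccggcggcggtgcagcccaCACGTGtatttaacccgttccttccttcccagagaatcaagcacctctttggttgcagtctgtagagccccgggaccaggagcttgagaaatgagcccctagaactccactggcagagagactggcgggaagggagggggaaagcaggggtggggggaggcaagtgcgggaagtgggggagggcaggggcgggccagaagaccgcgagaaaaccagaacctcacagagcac
The short core occurs in 17.7% of all 32817 promoter windows of this length, the E-box in 6.02% and the full element in 1.55%. A match of letters alone cannot tell whether a factor binds there, and binding was not measured. Other forms of these elements were not searched. The single windows of Ntrk2 and Ngfr held none of the 3 motifs. The table holds no window for Ntrk3 and Sort1.

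Bdnf in males stood at 41.3, 33.7, 38.6 and 36.0 CPM in High Activity libraries 5 to 8 and at 60.9, 44.8, 48.9 and 55.6 CPM in Low Activity libraries 13 to 16. All 4 High Activity males were below all 4 Low Activity males. In one direction or the other, 9.53% of all genes and 15.5% of those that passed the filter separated the male groups. The difference was -0.49 on the log2 scale (SE 0.10, edgeR's quasi-likelihood test, Benjamini-Hochberg adjusted p = 0.0022), which is 28.7% lower. It was called under all 30 other settings tried, at -0.56 to -0.39.

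Bdnf in females was 48.9, 38.3, 56.1 and 43.8 CPM in High Activity libraries 1 to 4 and 61.9, 48.9, 53.4 and 48.7 CPM in Low Activity libraries 9 to 12. The groups overlapped, since High Activity library 3 was above 3 of the Low Activity libraries. The log2 difference was -0.19 (SE 0.10, 95% interval -0.39 to 0.02, edgeR adjusted p = 0.335). Averaged over the sexes it was -0.34 (SE 0.07, edgeR adjusted p = 0.00149) and was called under all 29 other settings that give this average. Between the High Activity sexes Bdnf was lower in males, at 37.4 ± 3.26 against 46.8 ± 7.55 CPM (SD, n = 4 each), a log2 difference of -0.32 that edgeR did not call over all genes (adjusted p = 0.817). The Low Activity groups were at 52.6 ± 7.12 in males and 53.2 ± 6.19 CPM in females (SD, n = 4 each).

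Ntf3, which encodes neurotrophin-3, lies on the reverse strand of chromosome 6 (126101412 to 126166910) and rested on 85 to 220 counts per library. In females it was 6.01, 5.32, 5.36 and 4.86 CPM in High Activity libraries 1 to 4 and 8.17, 6.68, 6.99 and 7.03 CPM in Low Activity libraries 9 to 12. All High Activity females were below all Low Activity females. In one direction or the other, 13.8% of all genes and 22.9% of those that passed the filter separated the female groups. In males it was 6.82, 3.99, 4.68 and 4.40 CPM in High Activity libraries 5 to 8 and 7.24, 5.39, 6.18 and 6.18 CPM in Low Activity libraries 13 to 16. High Activity male 5 lay among the Low Activity males and the other 3 lay below all of them.

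The log2 difference of Ntf3 was -0.37 averaged over the sexes (SE 0.10, edgeR adjusted p = 0.0162), with -0.42 in females (SE 0.14, edgeR adjusted p = 0.0785) and -0.32 in males (SE 0.15, edgeR adjusted p = 0.256). The call for the average was lost without High Activity males 6 and 8 (-0.27, edgeR adjusted p = 0.108) and without the 4 males rich in thalamus and habenula RNA (-0.32, edgeR adjusted p = 0.0659). In males Ntf3 was called without High Activity male 5 (-0.52, edgeR adjusted p = 0.0189). In females the value stayed at -0.42 and passed the test with each sex fitted alone, without High Activity male 5, without High Activity males 6 and 8, without the males with Xist RNA and without the 4 males rich in thalamus and habenula RNA (edgeR adjusted p 0.0232 to 0.0394), settings that change the estimate of the spread or leave out males only. The joint test of any strain difference (edgeR adjusted p = 0.0461) was lost when any of 13 of the 16 libraries was left out and was kept only without library 1, 5 or 14, where the adjusted p reached down to 0.00305.

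Ntf3 and Bdnf varied together from library to library. Over the 16 libraries their log2 levels had a Pearson correlation of 0.795, and after the group means were removed one of 0.637. Both values are descriptions over libraries that share a dissection and a sequencing depth. Ntf3, which dentate granule cells are known to make, had a correlation of 0.803 within groups with the summed markers of these cells (0.558 over the 16 libraries), and over the 16 libraries its highest was with the markers of GABAergic interneurons (0.759, and 0.467 within groups). Bdnf had its highest within groups with microglial markers (0.735, and 0.414 over the 16 libraries), and over the 16 libraries its strongest were with choroid plexus markers (-0.673) and CA3 pyramidal cell markers (0.631, and 0.495 within groups). These were among 14 marker lists compared. With choroid plexus markers the value for Bdnf within groups was -0.479. Of these 5 markers 2 were called higher in the average over the sexes, against 5.46% of all genes, and 0 within either sex. Their part in the Bdnf difference was not tested. Of 6 dentate granule cell markers 4 were called lower and 1 higher in the average over the sexes, with a median of -0.29. Over all genes 5.89% were lower and 5.46% higher. The part of the dentate granule cell markers in the Ntf3 difference was not tested.

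Among the receptors, Ntrk2 (chromosome 13, 58806569 to 59133970, forward strand) encodes both the full-length TrkB kinase of neurons and a truncated form without the kinase, which is abundant in astrocytes. Counts were per gene, so the forms were not separated. In females Ntrk2 was 559, 580, 526 and 531 CPM in High Activity libraries 1 to 4 and 469, 476, 465 and 488 CPM in Low Activity libraries 9 to 12. Every High Activity female was above every Low Activity female, with a log2 difference of 0.21 (SE 0.05, edgeR adjusted p = 0.00735). A separation of the female groups was seen for 22.9% of genes that passed the filter.

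In males Ntrk2 was 542, 510, 569 and 503 CPM in High Activity libraries 5 to 8 and 505, 503, 505 and 473 CPM in Low Activity libraries 13 to 16. Library 8 lay within the Low Activity range, library 6 just above it and libraries 5 and 7 further above. The male difference was 0.10 (SE 0.05, 95% interval -0.01 to 0.20, edgeR adjusted p = 0.349), and the average over the sexes 0.15 (SE 0.04, edgeR adjusted p = 0.0037). With an offset for transcript length and GC content the female difference was 0.04 (edgeR adjusted p = 0.693) and the average 0.09 (edgeR adjusted p = 0.0932). With the same offset and the filter on low counts the average was called (0.09, edgeR adjusted p = 0.0284), as was the male difference (0.14, edgeR adjusted p = 0.0304), while the female difference was not (0.04, edgeR adjusted p = 0.546).

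Ntrk3 (chromosome 7, 78175959 to 78738012, reverse strand) likewise encodes kinase and truncated forms, which were counted together. In females it was 184, 220, 184 and 188 CPM in High Activity libraries 1 to 4 and 144, 139, 146 and 144 CPM in Low Activity libraries 9 to 12. The female groups did not overlap, as was so for 22.9% of genes that passed the filter. The Low Activity females were tightly grouped (143 ± 3.11 CPM, SD, n = 4). The log2 difference was 0.44 (SE 0.10, edgeR adjusted p = 0.00612), the larger of the 2 calls in females, and it was called under all 30 other settings, at 0.20 with the length and GC offset and up to 0.47 otherwise.

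In males Ntrk3 was 193, 150, 223 and 146 CPM in High Activity libraries 5 to 8 and 191, 150, 166 and 136 CPM in Low Activity libraries 13 to 16. The High Activity males split into 2 pairs, with libraries 5 and 7 above every Low Activity male and libraries 6 and 8 among the lower of them. The male difference was 0.15 (SE 0.10, edgeR adjusted p = 0.506). It was 0.37 without High Activity males 6 and 8 (edgeR adjusted p = 0.0046) and 0.22 without the 4 males rich in thalamus and habenula RNA (edgeR adjusted p = 0.105). With the length and GC offset it was 0.20 (edgeR adjusted p = 0.0195), the same as the female value under that setting. Averaged over the sexes the difference was 0.29 (SE 0.07, edgeR adjusted p = 0.00638), and all 29 other settings kept it called, at 0.20 to 0.40.

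**Figure D2:**
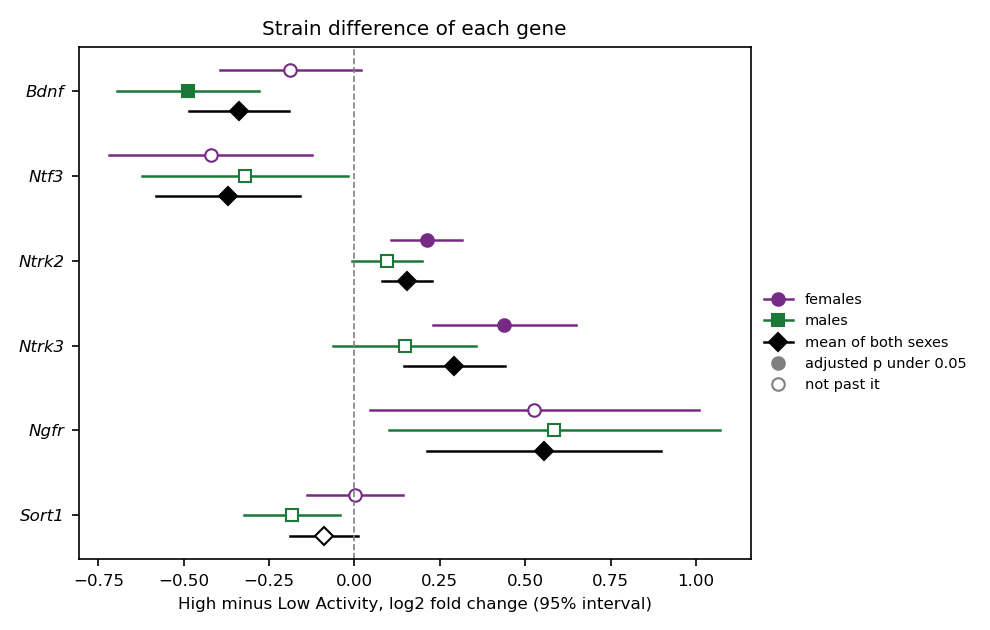
Log2 difference of High Activity minus Low Activity mice for each gene in females, in males and averaged over the sexes, with 95% intervals from edgeR's quasi-likelihood fit over all genes. Filled symbols passed an adjusted p of 0.05. The averages of both ligands lie below 0, at -0.34 for Bdnf and -0.37 for Ntf3, and those of Ntrk2, Ntrk3 and Ngfr above it, at 0.15, 0.29 and 0.56.

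Ngfr (chromosome 11, 95568818 to 95587735, reverse strand) encodes the p75 receptor, which binds all neurotrophins and their precursors and in the adult brain is best known from cholinergic neurons of the basal forebrain. It was counted only 28 to 72 times per library. In females it was 2.90, 2.42, 2.57 and 2.26 CPM in High Activity libraries 1 to 4 and 1.56, 2.13, 1.35 and 2.00 CPM in Low Activity libraries 9 to 12. The female groups did not overlap, as was so for 22.9% of genes that passed the filter. In males it was 2.43, 1.78, 2.91 and 2.99 CPM in High Activity libraries 5 to 8 and 1.11, 2.01, 2.29 and 1.32 CPM in Low Activity libraries 13 to 16. High Activity male 6 lay within the Low Activity males and the other 3 above them.

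The log2 difference of Ngfr was similar in size in females (0.53, SE 0.23, edgeR adjusted p = 0.217) and males (0.59, SE 0.24, edgeR adjusted p = 0.175). Averaged over the sexes it was 0.56 (SE 0.17, 95% interval 0.21 to 0.90, edgeR adjusted p = 0.0274). That call was lost when library 1, 7, 8, 9, 11, 13 or 16 was left out (edgeR adjusted p 0.0525 to 0.0649), with the difference between 0.48 and 0.65 whichever single library was removed. A list of 3 cholinergic genes (Chat, Slc5a7 and Slc18a3), chosen as markers of the basal forebrain neurons, summed to 0.197 to 1.30 CPM in most libraries. The exceptions were High Activity males 6 and 8 with 7.18 and 6.70 CPM, which had the lowest and the highest Ngfr level of their group. These males also had the highest sums of thalamus and habenula markers, at 269 and 167 CPM. The region from which their cholinergic RNA came was not tested. Within groups Ngfr varied most with the summed markers of meningeal and perivascular fibroblasts (r = 0.668, and 0.703 over the 16 libraries). None of these 5 markers was called in either sex or in the average, their sums of 53.4 to 88.1 CPM in High Activity females and 45.7 to 78.3 CPM in Low Activity females overlapped, and their part in the Ngfr difference was not tested.

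Sort1 (chromosome 3, 108284082 to 108361511, forward strand) encodes sortilin, the partner of p75 for the precursors, which also sorts Bdnf into secretory vesicles. In females it was 653, 639, 659 and 634 CPM in High Activity libraries 1 to 4 and 671, 622, 642 and 647 CPM in Low Activity libraries 9 to 12. The female groups lay over each other, with a difference of 0.00 on the log2 scale (SE 0.07, edgeR adjusted p = 1) and a 95% interval of -0.14 to 0.14.

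In males Sort1 was 659, 505, 651 and 559 CPM in High Activity libraries 5 to 8 and 758, 648, 660 and 628 CPM in Low Activity libraries 13 to 16. Libraries 6 and 8 were the lowest of all 16 and library 13 the highest. The male difference was -0.18 (SE 0.07, edgeR adjusted p = 0.137). It was -0.04 without High Activity males 6 and 8 (edgeR adjusted p = 0.846) and passed the test when library 5 or library 7 was left out (-0.24 and -0.23, edgeR adjusted p = 0.0375 and 0.0492). Sort1 had its strongest correlation with the markers of CA3 pyramidal cells (0.863 over the 16 libraries and 0.806 within groups), whose sums were lowest in High Activity males 6 and 8, at 149 and 158 CPM. It had a correlation of -0.698 with the thalamus and habenula markers over the 16 libraries and of -0.785 within groups. The part of either list in the male difference was not tested beyond leaving the libraries out.

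**Figure D3:**
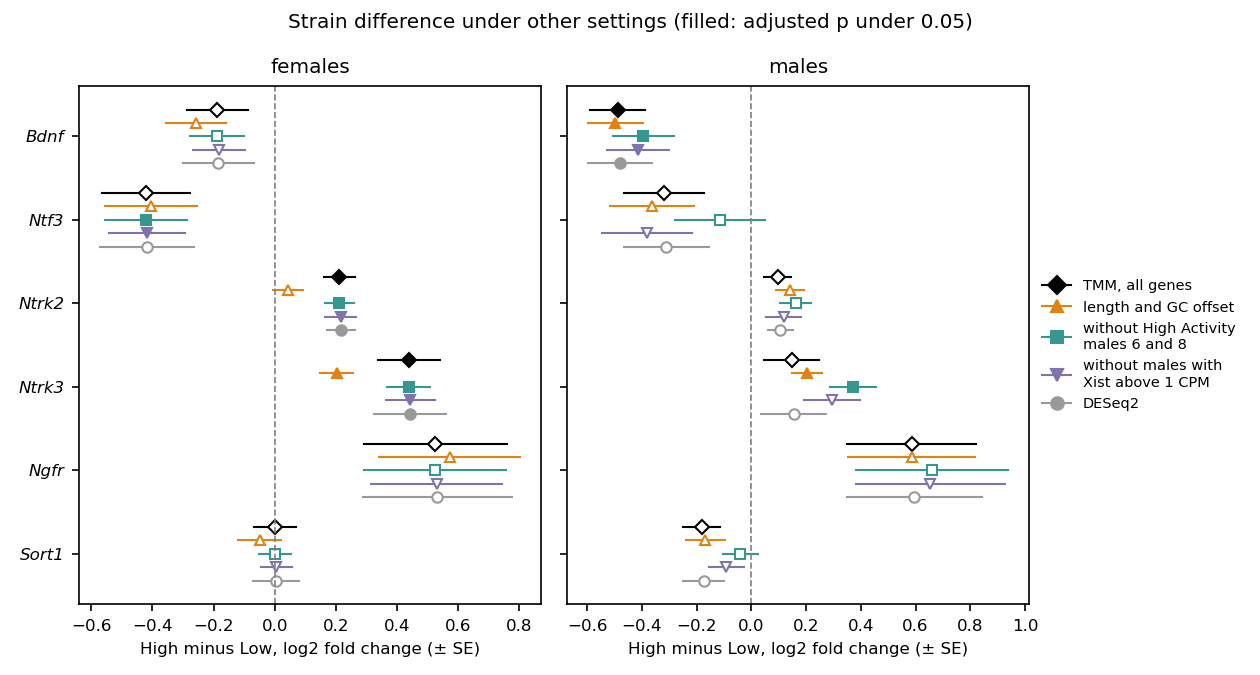
Log2 difference of High Activity minus Low Activity females (left) and males (right) for each gene with the main fit and 4 other settings, with SE. Filled symbols passed an adjusted p of 0.05. Bdnf in males stays near -0.5 to -0.4 in each setting drawn, Ntrk2 in females drops to 0.04 with the length and GC offset, and Ntrk3 in males rises to 0.37 without High Activity males 6 and 8.

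Ntrk2 and Ntrk3 were the pair of the 6 genes with the highest correlation (r = 0.899 over 16 libraries and 0.821 within groups). Both also followed the summed level of 6 astrocyte markers, with r = 0.866 for Ntrk2 (0.637 within groups) and 0.833 for Ntrk3 (0.773 within groups). The astrocyte markers summed to 5182 to 5385 CPM in High Activity females and to 4109 to 4335 CPM in Low Activity females, without overlap. In males they summed to 4354 to 5488 CPM in the High Activity and 4141 to 4273 CPM in the Low Activity groups. The High Activity males with less of them were libraries 6 and 8. Slc1a2 made up most of these sums, with means of 3786 CPM in High and 2813 CPM in Low Activity females. Correlations with the sum therefore weigh this gene most. In the average over the sexes 3 of the 6 astrocyte markers were called higher (Slc1a2, 0.35, Aldh1l1, 0.34, and Gja1, 0.23), against 5.46% of all genes. Aqp4 (-0.10), Slc1a3 (0.06) and Gfap (-0.01) were not called. Summed endothelial markers also ran with Ntrk2 (r = 0.836) and Ntrk3 (r = 0.808), at 154 to 177 CPM in High Activity and 132 to 148 CPM in Low Activity females. Markers of oligodendrocyte precursors ran with Ntrk2 as closely (r = 0.833, and 0.697 within groups). Of these 3 markers 2 were called higher in the average, against 5.46% of all genes. Within groups the strongest correlation of Ntrk3 was with the thalamus and habenula markers (-0.817, and -0.291 over the 16 libraries). How much of the Trk receptor differences goes with these cell markers was not tested.

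**Figure D4:**
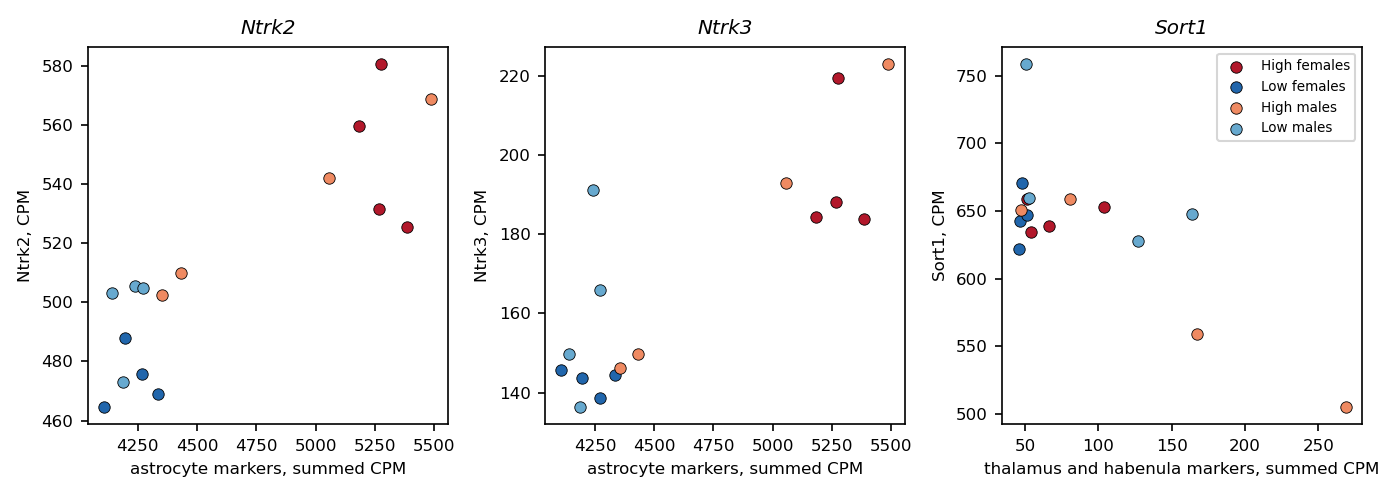
Level of Ntrk2 and Ntrk3 against the summed CPM of 6 astrocyte markers, and of Sort1 against the summed CPM of 5 thalamus and habenula markers; each point is 1 of the 16 libraries, coloured by group. Axes do not start at 0. Slc1a2 makes up most of the astrocyte sum. The High Activity females at 5182 to 5385 CPM of astrocyte markers lie to the right of every Low Activity library, of which the highest has 4335 CPM, and the High Activity male with 269 CPM of thalamus and habenula markers has the lowest Sort1 level, 505 CPM.

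The genes that followed each of the 6 most closely over the 16 libraries were taken from 13367 protein-coding genes with a mean of at least 1 CPM. For Bdnf these were Cyp26b1 (r = 0.911), Vash1 (0.904) and Gabra5 (0.902), and for Ntf3 they were Rin1 (0.947), Grasp (0.936) and C2cd2l (0.927). Ntrk2 ran closest with the microtubule-associated protein genes Map1b (0.964) and Map1a (0.954) and with Lrp1b (0.961), and Ntrk3 with Abca1 (0.967), Fry (0.966) and Scn8a (0.965). Ngfr had lower values, with Pdgfc at 0.921, Pld1 at 0.902 and Swap70 at 0.879. Sort1 ran closest with Adra1d (0.960), Stxbp5 (0.959) and Dlgap2 (0.954). These are the highest of many correlations and share the same libraries, groups and depth.

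Further genes of the family were not called for strain in the main fit, except Sorl1 and Sorcs2 in females. Ntf5, the other TrkB ligand, had group means of 0.333 to 0.553 CPM. Of the sortilin relatives, Sorl1 (0.37, SE 0.10, edgeR adjusted p = 0.0285) and Sorcs2 (0.22, SE 0.07, edgeR adjusted p = 0.0379), which also pairs with p75, were higher in High Activity females. Both calls were lost with limma-voom and with the offset for length and GC content, that of Sorl1 also without library 1, 2, 3, 10, 11 or 12 and that of Sorcs2 without library 1, 2, 9, 10, 11 or 12. Sorcs1 and Sorcs3 were not called. Of the list of 7 further neurotrophins, receptors and sortilin relatives, 2 genes were called in females, 0 in males and 0 in the average. The shares of all genes called were 7.26%, 6.04% and 11.4%. Among genes that passed the filter they were 12.7%, 10.4% and 19.2%.

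The genes around the ligands and receptors were read against the share called over all genes in the average over the sexes, 11.4%, or 19.2% of those that passed the filter. Of 12 genes that cleave or guard the precursors, 1 was called, which is no more than these shares: Serpini1, which encodes the protease inhibitor neuroserpin, was lower (-0.26, SE 0.04, edgeR adjusted p = 6.5e-05). Of 18 partners and effectors of p75, which all passed the filter, 3 were called, no more than the 19.2%. Bex1 (0.51) and the gamma-secretase subunit Ncstn (0.32) were higher and the Nogo receptor Rtn4r (-0.24) was lower. Of 44 Trk adaptors and kinases 2 were higher and 9 lower in the average, with a median of -0.03, while 5.46% of all genes were higher and 5.89% lower. In females 5 were higher and 2 lower, against 7.26% of all genes called (12.7% of those that passed the filter), and in males 0 were higher and 8 lower, against 6.04% (10.4%). The adaptor gene Gab1 was higher in females (0.49, SE 0.07, edgeR adjusted p = 5.88e-05) and at 0.13 in males (edgeR adjusted p = 0.402), whereas Rps6ka2, a kinase downstream of Erk, was lower in both (-0.34 and -0.38). Irs2 was higher in females (0.23, edgeR adjusted p = 0.0133), a call lost without library 2. Over all genes that passed the filter the median was -0.003 in the average.

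Of 14 transcription factors and coactivators known to act on Bdnf promoters, 4 were lower and 0 higher in the average over the sexes, with a median of -0.08, against 5.89% of all genes lower and 19.2% of genes past the filter called in either direction. Usf1, which binds the E-box, was lower by a like amount in females (-0.36) and males (-0.36, SE 0.06 in each). Crtc1, a coactivator of Creb1, was at -0.25 in females and -0.37 in males (edgeR adjusted p = 0.0139 and 0.000336). Creb1, the factor of the cyclic AMP response element, was lower in males (-0.24, edgeR adjusted p = 0.00755) and at 0.06 in females (edgeR adjusted p = 0.608). The male call of Creb1 was lost without High Activity males 6 and 8 (-0.19, edgeR adjusted p = 0.139), without the 4 males rich in thalamus and habenula RNA (-0.20, edgeR adjusted p = 0.211) and without the males with Xist RNA (-0.24, edgeR adjusted p = 0.0526).

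Genes that neurons switch on with activity, as they do Bdnf, were lower in High Activity mice as far as they were called. Of 22 such genes 10 were called lower and 0 higher in the average over the sexes, against 5.89% of all genes lower (1797 of the 17805 that passed the filter), and all 22 had a value below 0 (median -0.25). In males 6 were called lower, where 10.4% of genes past the filter were called in either direction, and all 22 were below 0 (median -0.35). In females 1 was called lower, where that share was 12.7%, 18 were below 0 and the median was -0.14. Fosb, an early transcription factor, was at -1.07 in males (SE 0.15, edgeR adjusted p = 1.3e-05) and -0.33 in females (SE 0.14, edgeR adjusted p = 0.201). Inhba, which encodes an activin subunit, was at -0.81 in males (SE 0.14, edgeR adjusted p = 0.000263) and -0.04 in females (edgeR adjusted p = 0.963), and Gadd45b, a stress-induced gene, at -0.68 in males (SE 0.14, edgeR adjusted p = 0.00265) and -0.32 in females (edgeR adjusted p = 0.201). The difference between the sexes was not called by edgeR for any of them. Without High Activity males 6 and 8 the list had 7 lower calls in the average and 5 in males, where 21 of 22 were below 0 (median -0.23). This setting keeps the Low Activity males rich in thalamus and habenula RNA. Counts for the list without such males of both strains are not given here. How far the lower calls depend on these libraries is therefore not settled. Without the males with Xist RNA there were 13 and 10 lower calls.

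**Figure D5:**
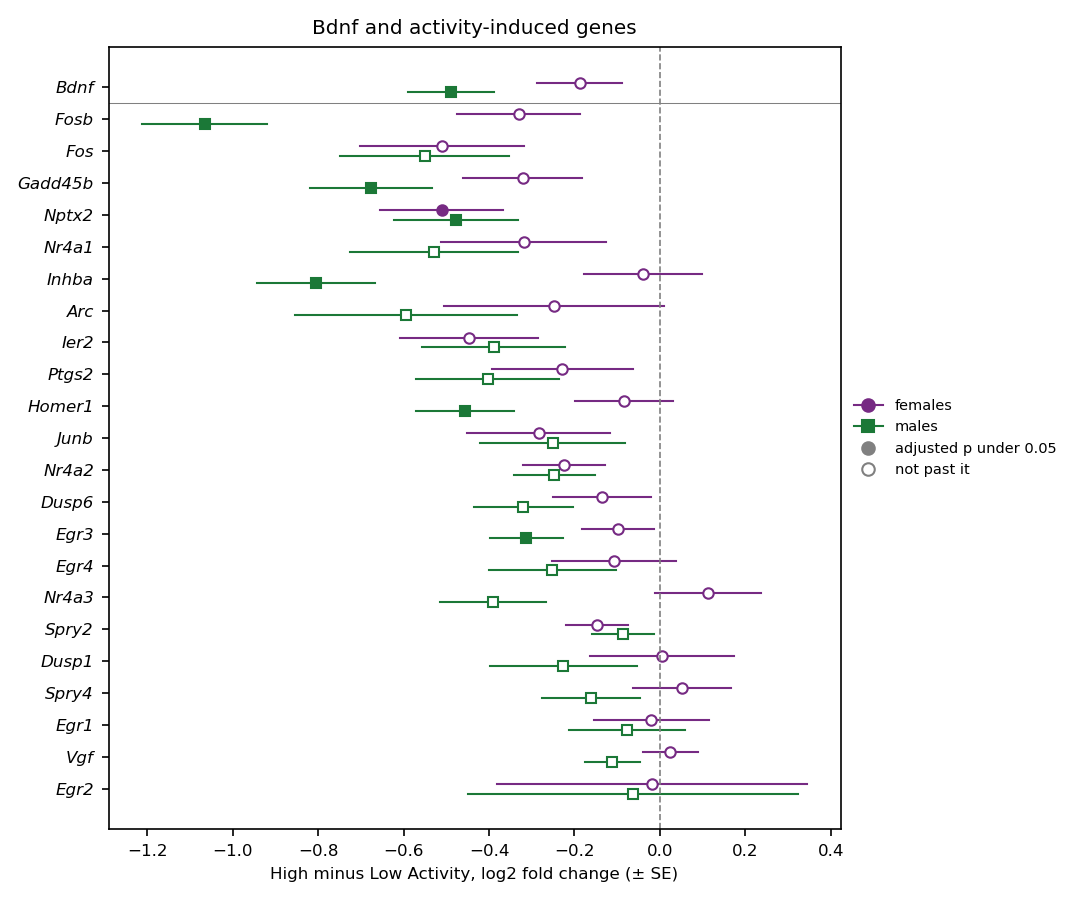
Log2 difference of High Activity minus Low Activity mice, with SE, for Bdnf and 22 activity-induced genes in females and males, ordered by the average over the sexes. Filled symbols passed an adjusted p of 0.05. All 22 male values lie below 0, from Fosb at -1.07 to Egr2 at -0.06, and 1 female value, that of Nptx2, is filled.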

How the data were processed

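Hippocampal poly-A RNA of 16 mice was sequenced as paired reads. After trimming, the authors used HISAT2 on mm10, then RSEM for expected counts of Ensembl genes and DESeq2 1.30.1 for tests. All deposited expected counts were whole numbers and were used without rounding. Symbols came from GENCODE M21, and 61 identifiers had no match there. The libraries are described as strand-specific, but the strand setting of the counting is not given in the sources used here: Bdnf, Ntrk2, Ntrk3 and Sort1 overlap annotated genes, which had at most 125 counts in a library. The strains differ from the mm10 reference in sequence, and no correction for this was made.

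Levels are CPM with TMM factors. The 6 genes and all lists were chosen with earlier results of these data known. Strain was tested within each sex, averaged over the sexes, jointly and as an interaction with edgeR 4.0.16 (quasi-likelihood F-test, all 4 groups in 1 fit, Benjamini-Hochberg over 31960 genes). DESeq2 1.42.0 and limma 3.58.1 (voom) were alternatives, beside other scalings, a filter on low counts, adjustment over protein-coding genes, a length and GC offset, each sex alone and leaving libraries out. Leaving out the 4 males with over 120 CPM of thalamus and habenula markers, and the offset combined with the filter, were chosen after seeing the data. Named genes were the 6, the list of 7 relatives (some are not reported here), up to 3 genes of each other list by the smallest p of any strain difference among called genes, and the 3 most correlated genes for each of the 6. Single cell type markers, Nptx2 and Egr2 were named after their values were seen. Scripts were tested on simulated data, where the share of false calls exceeded the nominal rate when each gene kept its own spread. Each library is 1 mouse. Reads without molecular identifiers are not independent molecules.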

Additional observations from a re-analysis of the deposited data

Results flagged for a closer look

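In 24 groups of 4 libraries (6 genes in 4 groups), 2 single libraries lay apart from their group by Dixon's criterion, which chance exceeds in about 5% of groups. Ntrk2 in Low Activity male 16 was 473.1 CPM, while the other 3 Low Activity males lay between 503.1 and 505.4 CPM. Ntrk3 in High Activity female 2 was 219.6 CPM, while the other 3 High Activity females lay between 183.9 and 188.2 CPM. The calls of both genes in females and in the average over the sexes were kept without either library.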

How the results depend on the processing

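No paired analysis was possible because the library numbers run from 1 to 16 and no number is shared between groups. Bdnf in males and in the average, and Ntrk3 in females and in the average, were called under every alternative tried. Of 911 values of the 6 genes under alternatives, 849 kept their direction and their side of the threshold. Most of the 31 results behind them were not called in the main fit, so for these it means staying uncalled. Fits without a single library also share the other libraries with the main fit. With the length and GC offset, with or without the filter on low counts, 1 of the 6 genes was called in females, and 2 (3 with the filter) in males. Without High Activity males 6 and 8, 2 of the 6 were called in males, and the count ran from 1 to 3 over single libraries left out (3 without High Activity male 5). Without the 4 males rich in thalamus and habenula RNA, 1 of the 6 was called between the Low Activity sexes, Ntrk3, higher in males by 0.32 (edgeR adjusted p = 0.00123).

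Near 0, signs turned. Sort1 in females was -0.012 without composition factors and -0.049 with either form of the offset, and -0.016 to 0.025 over single libraries. The interaction of Ntrk2 was -0.10 and that of Ntrk3 -0.00095 with the offset (-0.00098 with the filter). Over single libraries the interaction of Ntf3 ran from -0.19 to 0.10 and that of Ngfr from -0.25 to 0.10. The causes were not tested.

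Over all genes, 1249 were called in males without the males with Xist RNA and 1234 without the 4 thalamus-rich males, against 1930. The interaction called 0 genes, against 154 with DESeq2, 3 with the offset, 2 without High Activity males 6 and 8, 33 without the Xist males, 100 without the 4 males and 0 to 206 over single libraries. Sex in High Activity mice gave 11 calls, against 26 without the Xist males, 53 without the 4 males and 10 to 28 over single libraries. Sex in Low Activity mice gave 75, against 49 without composition factors, 339 with DESeq2, 25 with the offset (21 with the filter), 138 over protein-coding genes, 527 without males 6 and 8, 202 without the Xist males, 1109 without the 4 males and 19 to 187 over single libraries. Low counts limit Ngfr (28 to 72) and Ntf3 (85 to 220) most.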
